A study of Mus musculus with 8 samples.

Results

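Tetrahydrobiopterin is made and kept in its reduced form by a small set of enzymes, and 6 of their genes were followed in granulosa cells of mouse ovarian follicles: Gch1, Gchfr, Pts, Spr, Qdpr and Pcbd1, out of 35087 named genes. Gch1 was chosen by its measured read counts, which differed widely between libraries, and the other 5 because they belong to the same pathway. The levels of Gch1 are therefore described with no test. All 6 genes were chosen with earlier results of these data known. The libraries came from granulosa cells cut from ovary cryosections by laser microdissection, with polyadenylated RNA amplified by the Smart-seq2 method. All mice were females with Hif1aflox/flox alleles, in which Cre recombinase can excise part of Hif1a, and all received tamoxifen at 100 mg/kg a day for 5 days from 3 weeks of age, with the ovaries removed 7 days after the final injection. Mice of the cKO group (2 libraries) had Foxl2-CreERT2 as well, a tamoxifen-activated Cre under the control of Foxl2, a gene of granulosa cells. Mice of the WT group (6 libraries) had the floxed alleles without Cre. The genotype label names the cKO group a knockdown. Libraries are numbered by the replicate in their titles, and lists of values follow that order. Every library name in the sample descriptions starts with cKO, which goes against the titles and genotypes of the WT samples; the titles were followed. The labels do not say how many mice, follicles or follicle stages the libraries stand for, so p-values measure the spread between these libraries only, and would be too small if libraries shared a mouse.

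Gch1 encodes GTP cyclohydrolase 1, which opens the guanine ring of GTP and is the rate-limiting step of the pathway. Pts (6-pyruvoyltetrahydropterin synthase) and Spr (sepiapterin reductase) carry its product on to tetrahydrobiopterin, a cofactor of the nitric oxide synthases, of the aromatic amino acid hydroxylases and of alkylglycerol monooxygenase. The aromatic amino acid hydroxylases spend the cofactor, and Pcbd1 (pterin-4a-carbinolamine dehydratase) and Qdpr (quinoid dihydropteridine reductase) regenerate it, while Gchfr encodes the regulatory protein through which tetrahydrobiopterin inhibits GTP cyclohydrolase 1.

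The libraries differed in depth, from 651426 to 2054584 reads on named genes in cKO and from 1594803 to 4719293 in WT. The mitochondrial genome took 8.87% and 10.5% of reads in cKO and from 1.42% to 3.65% in WT. All 9 granulosa markers, Foxl2, Fshr and Inha among them, had reads in every library, and summed to 1370 and 4400 CPM (the normalised read count, after TMM scaling) in the cKO libraries and from 2967 to 57911 CPM in WT. Hif1a, the targeted gene, had 22.3 and 13.7 CPM in the cKO pair, against 35.5 to 106 CPM across WT. Both cKO libraries were below every WT library, as for 6.41% of all genes tested, and the adjusted p of Hif1a was 0.369 in edgeR. Exons of Gm15283 and Gm49321 overlap those of Hif1a. Counts over the whole gene also do not single out the part that Cre can excise. Summed markers of theca and stroma ranged from 357 to 1616 CPM in cKO and from 18.8 to 1128 CPM in WT, and endothelial markers from 279 to 330 and from 88.2 to 434 CPM. The 8 oocyte markers summed to 17.8 and 44.7 CPM in cKO and from 2.94 to 1526 CPM in WT, with WT replicates 6 and 2 at the top. Macrophage and blood markers ranged from 56.0 to 272 CPM in cKO and from 15.7 to 219 CPM in WT, with Adgre1, Csf1r, Lyz2 and C1qa at 0 in at least 3 WT libraries. The part of these differences in the results that follow was not tested.

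Among the members, Gch1 had the widest WT spread, Qdpr the largest tested difference and Spr the highest median TPM (corrected for length) in WT. The stretches before the start sites of Gch1, Qdpr and Spr are therefore shown. Each holds the 250 bases before the start site in RefSeq (GRCm38.p6), where all 6 members were found, read 5′ to 3′ on the strand of the gene. Capitals mark the motifs searched on both strands: ACGTG and GCGTG (the core bound by HIF), TGACGTCA (the cAMP response element), TGTTTAC (a FOXO site), and TGACG and CCAAT, which were added after the Gch1 sequence had been read. The Spr stretch holds none of them and has no capitals.
Gch1, chr14:47189414-47189663, minus strand: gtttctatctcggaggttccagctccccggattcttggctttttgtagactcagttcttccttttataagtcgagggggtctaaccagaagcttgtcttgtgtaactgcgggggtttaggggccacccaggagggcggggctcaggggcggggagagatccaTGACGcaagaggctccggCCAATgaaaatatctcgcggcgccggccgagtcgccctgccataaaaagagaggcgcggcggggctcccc
Qdpr, chr5:45450230-45450479, minus strand: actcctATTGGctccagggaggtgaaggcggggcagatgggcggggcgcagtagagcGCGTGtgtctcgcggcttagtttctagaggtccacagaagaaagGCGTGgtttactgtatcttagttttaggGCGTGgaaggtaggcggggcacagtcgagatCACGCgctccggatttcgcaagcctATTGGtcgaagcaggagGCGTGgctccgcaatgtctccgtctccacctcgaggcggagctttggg
Spr, chr6:85137765-85138014, minus strand: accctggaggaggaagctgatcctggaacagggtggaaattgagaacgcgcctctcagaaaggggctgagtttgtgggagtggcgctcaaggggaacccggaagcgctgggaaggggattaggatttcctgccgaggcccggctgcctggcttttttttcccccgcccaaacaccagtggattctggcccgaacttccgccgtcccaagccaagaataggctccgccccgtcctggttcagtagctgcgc
The Gch1 stretch held TGACG, part of TGACGTCA, from 88 to 84 bases before the start and CCAAT from 70 to 66 bases before it. Among all 32851 promoter windows of this length, 17.8% held TGACG and 33.8% held CCAAT. Neither HIF core was found in the Gch1, Pts or Spr stretches. Capitals of Qdpr that read CACGC or ATTGG are GCGTG and CCAAT on the other strand. Qdpr held GCGTG 5 times, Pcbd1 2 times and Gchfr 1 time. Of all windows, 28.2% held GCGTG at least 1 time, 8.63% at least 2 times and 0.298% at least 5 times. ACGTG (16.6% of windows), TGACGTCA (1.55%) and TGTTTAC (3.17%) were found in none of the 6 members. A match is a run of letters and not a measured binding site.

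Gch1 (ENSMUSG00000037580, chromosome 14, 47153895 to 47189413, minus strand, mm10) was near the detection limit in 3 libraries and abundant in 4. Libraries cKO 1 and 2 showed 1.01 and 5.46 CPM, whereas WT 1 to 6 showed 4.95, 27.6, 118.5, 217, 164 and 116.5 CPM. Both cKO libraries and WT replicate 1 lay at 5.46 CPM or less, WT replicate 2 lay between, and WT replicates 3 to 6 were all above 116 CPM. The groups overlapped, since cKO replicate 2 was above WT replicate 1. These low values rest on 2 and 4 reads (rounded) in cKO and 9 reads in WT replicate 1, with exact Poisson 95% intervals of 0.123 to 3.67, 1.49 to 14.0 and 2.26 to 9.39 CPM that cover counting error only, so these 3 libraries could not be ordered at this depth. The interval of WT replicate 2 was 22.5 to 33.5 CPM and lay above them.

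Gch1 averaged 3.24 ± 3.15 CPM (SD, n = 2) over the cKO pair and 108 ± 80.3 CPM (SD, n = 6) over WT. On the log2(CPM + 1) scale the difference of group means was -4.20 (-3.36 if cKO replicate 1 is left out, -5.04 if cKO replicate 2 is), beside an SD of 1.98 among the WT libraries. The highest WT library was 43.8 times the lowest in CPM, a range of 5.19 on the log2(CPM + 1) scale where the median gene tested had 2.02. Only 200 of the 15102 genes tested (1.32%) had as wide a range among the WT libraries. That spread is what singled Gch1 out. It rested in large part on WT replicate 1, without which the log2 range was 2.93. The 3 libraries with little Gch1 were also the 3 with the fewest reads. WT replicate 3, with 2330139 reads against 2054584 in cKO replicate 1, had 118.5 CPM. Summed granulosa markers, which include the Inhba and Amh given further on, moved in part with Gch1, at 4400 and 1370 CPM in the cKO pair, 2967 and 7326 CPM for WT 1 and 2, and 17834, 57911, 37750 and 19407 CPM for WT 3 to 6. Inha was the largest part of this sum in every library, from 652 CPM in cKO 2 to 42623 CPM in WT 4. Single markers were not alike. Fshr, Cyp19a1 and Hsd17b1 were also highest in WT 3 to 6, though Fshr in WT 6 (46.5 CPM) was close to WT 2 (45.7 CPM). Nr5a2 was highest in WT 3 to 5, but WT 6 (240.3 CPM) lay below cKO 1 (241.6 CPM). Foxl2 did not follow Gch1. It had 126 and 88.8 CPM in the cKO pair and 149, 232, 332, 140, 92.2 and 91.4 CPM in WT 1 to 6. Amhr2 did not follow Gch1 either. The part of these markers in the Gch1 values was not tested. In bulk RNA of cut tissue, fewer cells with Gch1 and less Gch1 RNA per cell cannot be told apart.

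**Figure D1:**
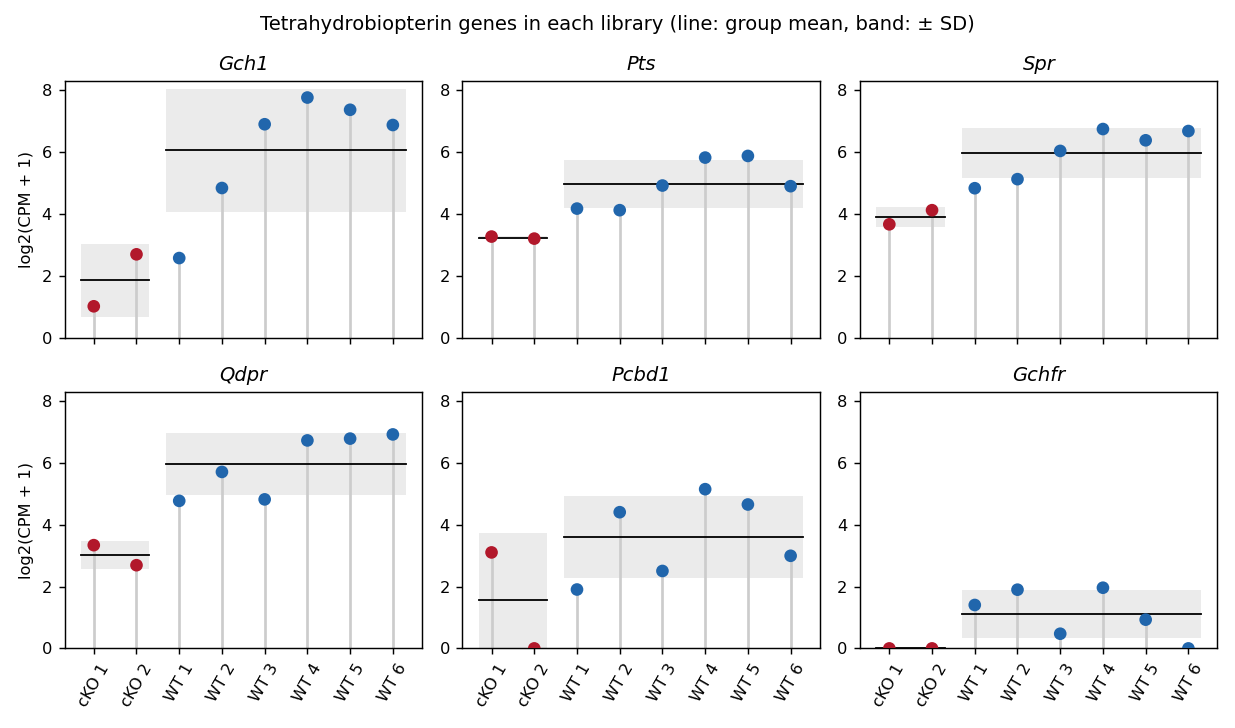
Normalised read counts of the 6 tetrahydrobiopterin genes in each library, as log2(CPM + 1) on the vertical axis, with cKO in red and WT in blue, lines at the group means and bands of ± SD. Gch1 spans from 1.01 to 217 CPM, and Pts, Spr and Qdpr are lower in both cKO libraries than in every WT library.

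The few Gch1 reads of the low libraries were not all from the coding transcript. GENCODE M21 lists 2 transcripts of Gch1, a coding one of 2775 bases and one of 3508 bases with a retained intron, and the deposited TPM and estimated reads together give the effective length behind each value and so the split of reads between them. All 8 libraries then came out with a whole number of reads on the coding transcript (within 0.01). That number was 2 and 0 for cKO 1 and 2, and 4, 101, 277, 891, 717 and 515 for WT 1 to 6. In cKO replicate 2 all 3.7 estimated reads were assigned to the retained-intron transcript, and in WT replicate 1 this transcript took 5.0 of 9.0 reads. In WT replicates 3 to 6 the coding transcript took from 91.0% to 99.4% of reads. Coding Gch1 was therefore 1.01 and 0 CPM in the cKO pair, against 2.20 CPM for WT replicate 1 and 27.6 to 215 CPM for the rest of WT. The value of 0 allows up to 4.10 CPM in that library (3 reads), so cKO and WT replicate 1 were not distinguishable at this depth by coding reads either. The genes Gm49134 and Gm18811 lie within the Gch1 locus but overlap none of its exons.

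**Figure D2:**
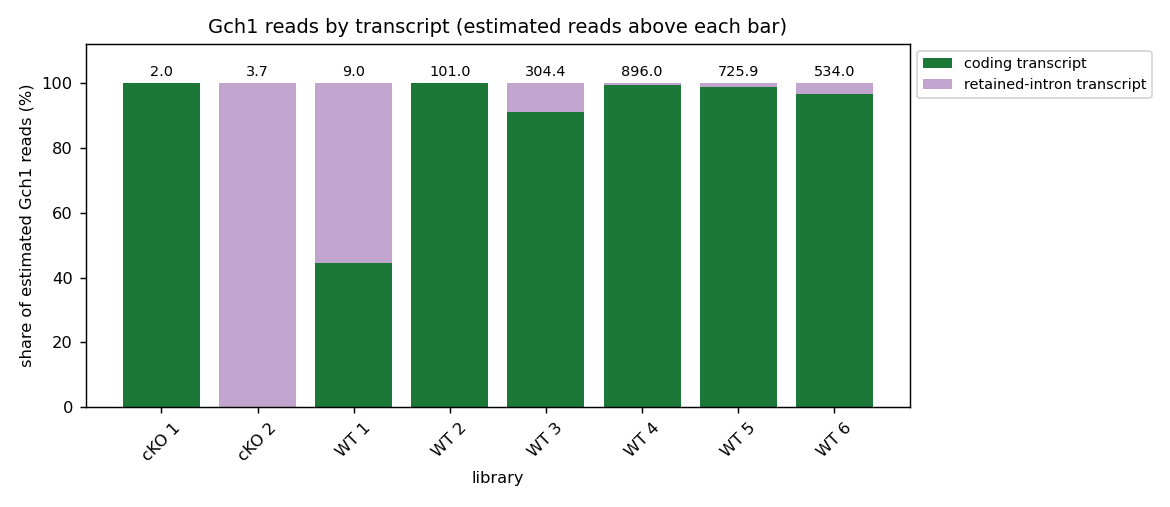
Share of the estimated Gch1 reads assigned to the coding and to the retained-intron transcript in each library, in percent, with the estimated reads above each bar. The coding share is 0% in cKO replicate 2 and 44.4% in WT replicate 1, both from 9.0 reads or fewer, and at least 91.0% in the other 6 libraries.

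Pts and Spr, the enzymes after GTP cyclohydrolase 1, were lower in both cKO libraries than in any WT library, but neither passed the test over all genes. Pts (chromosome 9, 50521617 to 50528724, minus strand) stood at 8.63 and 8.20 CPM in the cKO pair, against 17.0, 16.4, 29.2, 55.6, 57.7 and 28.8 CPM for WT replicates 1 to 6. The groups did not overlap, and WT replicates 1 and 2 were closest to cKO. The log2 fold change of Pts was -2.02 ± 0.69 (SE), with an unadjusted p = 0.0111 and an adjusted p = 0.369 in edgeR's quasi-likelihood test. Spr (chromosome 6, 85130176 to 85137766, minus strand) stood at 11.7 and 16.4 CPM in the cKO pair, against 27.5, 33.9, 64.7, 106, 82.4 and 101.7 CPM across WT. Again WT replicates 1 and 2 were the nearest to cKO, with no overlap. The log2 fold change of Spr was -2.33 ± 0.65 (SE), with an unadjusted p = 0.00293 and an adjusted p = 0.369 in edgeR. DESeq2 gave Spr an adjusted p = 0.0271 and called it lower, and gave Pts an adjusted p = 0.0906. Leaving out 1 of the cKO libraries moved the unadjusted edgeR p of Pts to 0.0561 (replicate 1 left out) or 0.0532 (replicate 2 left out).

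The recycling genes were Qdpr and Pcbd1. Qdpr (chromosome 5, 45434021 to 45450236, minus strand) had the largest tested difference of the pathway, at 9.13 and 5.46 CPM in the cKO pair against 26.4, 51.4, 27.3, 105, 109.6 and 120.5 CPM across WT. The groups did not overlap, and WT replicates 1 and 3 were nearest to cKO. Qdpr averaged 7.30 ± 2.60 CPM (SD, n = 2) over the cKO pair and 73.4 ± 43.3 CPM (SD, n = 6) over WT. The log2 fold change was -3.27 ± 0.79 (SE), with an unadjusted p = 0.000996 and an adjusted p = 0.369 in edgeR, and DESeq2 called it lower with an adjusted p = 0.00431. The cKO values rest on 18 and 4 reads. Exons of Gm42413 on the other strand overlap Qdpr, and without strand in the reads the pair cannot be told apart. Pcbd1 (chromosome 10, 61089331 to 61094324, plus strand) stood at 7.61 and 0 CPM in the cKO pair, against 2.75, 20.2, 4.68, 34.6, 24.2 and 6.98 CPM across WT. It was low in WT replicates 1, 3 and 6 and overlapped between groups, and its 0 in cKO replicate 2 allows up to 4.10 CPM. The log2 fold change of Pcbd1 was -1.85 ± 1.18 (SE, edgeR adjusted p = 0.525), or -1.12 without cKO replicate 2. When cKO replicate 1 was dropped, the group held 0 reads of Pcbd1 and the fitted -8.63 measures no size.

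Gchfr (chromosome 2, 119167773 to 119172390, plus strand) was scarce everywhere and did not pass the filter on low counts. It had 0 reads in both cKO libraries and 3, 10, 1, 12, 4 and 0 reads in WT replicates 1 to 6, at most 2.901 CPM. A count of 0 allows up to 1.52 and 4.10 CPM in cKO replicates 1 and 2, so a difference between groups was not detectable. WT replicate 6, with 116.5 CPM of Gch1, had no read of its regulator, which allows up to 0.655 CPM. WT replicates 4 and 5, the richest in Gch1, had 2.901 and 0.906 CPM of Gchfr.

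In sum over the 5 members besides Gch1, 4 were tested and all 4 fitted values lay below 0, as did 52.7% of all 15102 genes tested. Of these members 3 (Pts, Spr and Qdpr) had an unadjusted p under 0.05 in edgeR and were lower in cKO, where 8.89% of all genes did. No member was higher by that measure, where 3.40% of all genes were, or by DESeq2, where 0.451% were. Pts, Spr and Qdpr also had both cKO libraries below every WT library, as did 6.41% of all genes. At an adjusted p under 0.05, edgeR called 0 members and 0% of all genes. By DESeq2, which adjusted p-values for 3 of the 4 (Pts, Spr and Qdpr), Spr and Qdpr were lower at that threshold, as were 3.53% of all genes with such a value. Most reads of the 4 tested members came from WT, the group with more libraries. These members are few and were chosen with earlier results of these data known. Their number below 0 is therefore a description and supports nothing further. The median log2 fold change was -2.17 for the 4 and -0.08 for all genes.

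TPM values, which are corrected for length, allow the members to be ordered within a library. In WT the median was 69.1 TPM for Spr, 53.0 for Qdpr, 44.5 for Gch1, 32.4 for Pts, 16.8 for Pcbd1 and 2.74 for Gchfr. Neighbours in this order were not well separated, as Spr exceeded Qdpr in 4 of 6 WT libraries, Qdpr exceeded Gch1 in 5, Gch1 exceeded Pts in 3 and Pts exceeded Pcbd1 in 5. Pcbd1 and Gchfr were the only neighbours to keep 1 order in all 6. The 6 members summed to 30.2 and 27.1 TPM in the cKO pair, against 81.1, 97.9, 184, 326, 311 and 286 TPM for WT 1 to 6. Gch1 contributed 0.968% and 5.75% of that sum in the cKO pair, 2.02% and 7.23% in WT 1 and 2, and 25.8%, 20.4%, 17.6% and 14.5% in WT 3 to 6. These shares describe Gch1, which was chosen for its spread, and are no separate finding. The ratio of Gch1 to Spr in TPM was 0.0333 and 0.0992 in the cKO pair, 0.0528 and 0.296 in WT 1 and 2, and between 0.423 and 0.792 in the other 4 libraries. In WT replicate 3, Gch1 at 47.4 TPM ranked above Qdpr at 33.1 TPM, the only library in which it ranked second.

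**Figure D3:**
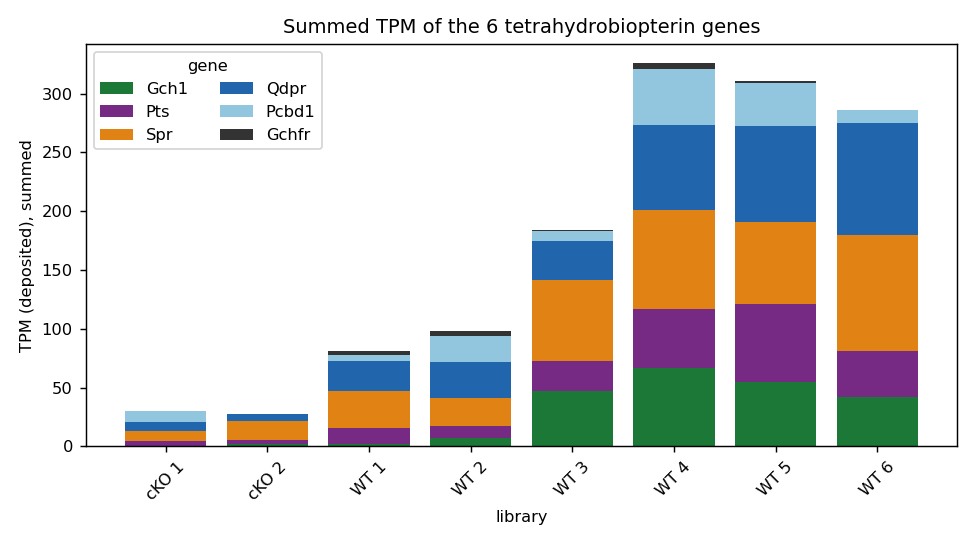
Deposited TPM of the 6 members stacked in each library, with TPM on the vertical axis and 1 colour per gene. The sum lies at 27.1 and 30.2 TPM in cKO and from 81.1 to 326 TPM in WT, and Gch1 (the lowest segment) is thin in both cKO libraries and in WT replicates 1 and 2.

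Other enzymes that touch the cofactor were mixed. Akr1b3, an aldo-keto reductase that can reduce the same intermediates as Spr, stood at 124 and 34.1 CPM in the cKO pair, against 98.9, 259, 360, 493, 436 and 327 CPM across WT. WT replicate 1 was below cKO replicate 1. The log2 fold change of Akr1b3 was -2.04 ± 0.68 (SE, edgeR adjusted p = 0.369, DESeq2 adjusted p = 0.0278), with -3.33 without cKO replicate 1 and -1.48 without cKO replicate 2. Pcbd2, the paralog of Pcbd1, and Cbr1, a carbonyl reductase, were at -0.18 ± 0.67 and -0.35 ± 0.63 (SE), and at 0.55 and 0.11 without cKO replicate 2. All 3 of these genes were tested, 1 of them (Akr1b3) was lower at an unadjusted p under 0.05 in edgeR, as were 8.89% of all genes, and 0 passed the adjustment. Their median was -0.35.

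The examined enzymes that use tetrahydrobiopterin reached at most 53.9 CPM in any library, and no fitted difference of those tested lay below 0. Of the 7 examined, Tph1 and Tph2 (tryptophan hydroxylases) did not pass the filter. The other 5 had fitted values above 0 (median 0.51), as did 7145 of all 15102 genes tested. At an unadjusted p under 0.05 in edgeR there were 0 of the 5, where 8.89% of all genes were lower and 3.40% higher. Nos2, the inducible nitric oxide synthase, stood at 18.8 and 15.03 CPM in the cKO pair, against 11.0, 12.6, 1.56, 8.46, 10.4 and 16.4 CPM across WT. Nos3, the endothelial form, stood at 22.8 and 8.20 CPM in the cKO pair, against 53.9, 3.83, 0, 3.38, 7.47 and 0 CPM across WT. WT replicate 1, the highest in Nos3, was also the highest of all libraries in summed endothelial markers, at 434 CPM. Of that sum, 306 CPM came from Pecam1, and every other endothelial marker was higher in some other library. Nos1, the neuronal form, ranged from 0.725 to 24.2 CPM in WT, and Th (tyrosine hydroxylase) and Agmo (alkylglycerol monooxygenase) reached at most 5.46 and 9.36 CPM in any library. In WT replicates 3 to 6, which were rich in Gch1, Nos3 was at 7.47 CPM or less, and WT replicate 1 alone was high in Nos3. These directions hang on single libraries: Nos1 and Th turned to -2.20 and -0.57 without cKO replicate 2, and Nos3 to -0.49 without cKO replicate 1.

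Around nitric oxide, the values went both ways. Ddah1 and Ddah2 break down methylated arginines that inhibit the synthases, and had log2 fold changes of -1.90 ± 0.77 and -2.07 ± 0.88 (SE, edgeR adjusted p = 0.378 and 0.381). Ddah1 stood at 17.8 and 13.7 CPM in the cKO pair, against 8.24 to 120 CPM across WT, with WT replicate 1 the lowest of all. Ddah2 stood at 35.5 and 8.20 CPM in the cKO pair, against 24.2 to 205 CPM across WT. Ddah2 moved to -3.61 when cKO replicate 1 is left out and to -1.53 when cKO replicate 2 is, and Ddah1 to -0.55 with TPM. Gucy1a1, a subunit of the nitric oxide receptor, was higher in both cKO libraries (17.8 and 20.5 CPM) than in every WT library (from 0 to 9.89 CPM), as were 6.02% of all genes, but its log2 fold change of 1.43 (SE 1.005) did not pass (edgeR adjusted p = 0.562). Gucy1a1 is also made by vascular and stromal cells, whose summed markers are given above. Ass1 (argininosuccinate synthase, which remakes arginine) was at -1.35 ± 1.09 (SE) but at 0.21 with TPM, and Asl (argininosuccinate lyase) was at 0.44 ± 0.41 (SE), or 0.11 when cKO replicate 2 is left out. Of the 6 genes of this group, 3 lay below 0 and 3 above, with 2 (Ddah1 and Ddah2) lower at an unadjusted p under 0.05, where 8.89% of all genes were lower and 3.40% higher.

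The genes that supply GTP, the substrate of GTP cyclohydrolase 1, were compared next. All 15 were tested, 13 lay below 0, as did 52.7% of all genes (among them Gart at -0.01, which turned to 0.09 with DESeq2's size factors), 3 had an unadjusted p under 0.05 in edgeR and were lower in cKO, as were 8.89% of all genes, and 0 passed the adjustment. The median was -0.74, beside -0.08 for all genes. Impdh1 (inosine monophosphate dehydrogenase, the committed step to guanine nucleotides) stood at 50.7 and 38.2 CPM in the cKO pair, against 81.3, 98.7, 107.6, 115.6, 81.7 and 99.9 CPM across WT, with no overlap. The log2 fold change of Impdh1 was -1.12 ± 0.41 (SE, edgeR adjusted p = 0.369). Guk1 (guanylate kinase) was at -1.73 ± 0.68 (SE), or -3.45 without cKO replicate 1 and -1.13 without cKO replicate 2. Pfas, an enzyme of purine synthesis, was higher in cKO with no overlap, at 62.9 and 91.5 CPM against 37.0 to 56.0 CPM in WT (log2 fold change 0.79 ± 0.38, SE, edgeR adjusted p = 0.419), or 0.43 when cKO replicate 2 is left out. Atic, the other member above 0, was at 0.25 ± 0.51 (SE). Impdh1, Guk1, Pfas and Atic are named because they had the smallest p in their direction. Of the 15 genes, 1 (Impdh1) had both cKO libraries below every WT library and 1 (Pfas) had both above. Among all genes these shares were 6.41% and 6.02%.

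**Figure D4:**
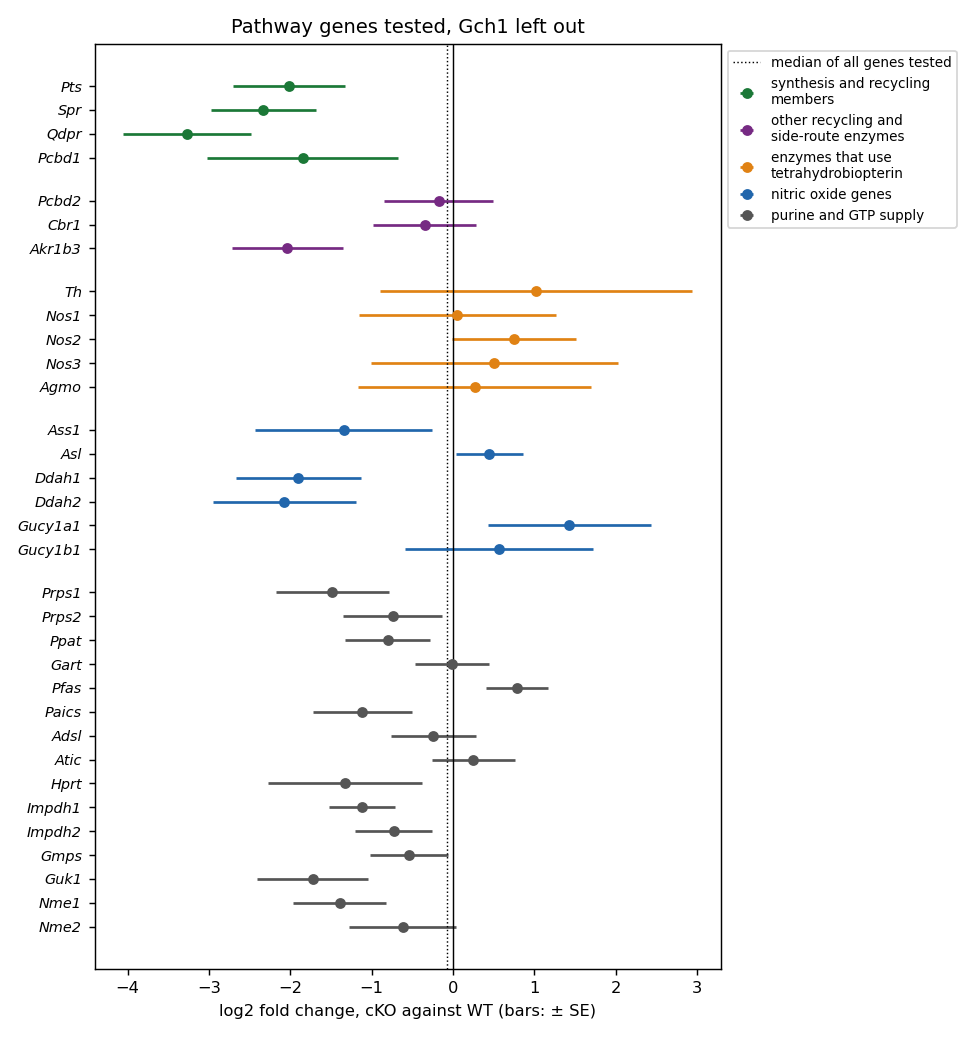
Log2 fold change of cKO against WT for each pathway gene reported here that passed the count filter, with bars of ± SE, coloured by list, and Gch1 left out. Qdpr lies lowest at -3.27, the 5 tested enzymes that use the cofactor all lie above 0 (as do 7145 of all 15102 genes tested), and the dotted line marks the median of all genes at -0.08.

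The genes whose pattern was closest to that of Gch1 were ranked by the root mean square difference of log2(CPM + 1) over the 8 libraries, each gene centred on its own mean, among 14008 named genes. The closest was Fhod3 (a formin that assembles actin) at 0.70, then Aldh1a7 (an aldehyde dehydrogenase) at 0.83, Gstm7 (a glutathione transferase) at 0.84, H2afv (a histone H2A variant) at 0.90, Nppc at 0.91, Otor (otoraplin) at 0.97, Psmd10 (a proteasome assembly chaperone) at 0.97 and Spcs1 (a signal peptidase subunit) at 1.01, where the median gene had 2.52. Nppc encodes the precursor of C-type natriuretic peptide, with which mural granulosa cells hold the oocyte in meiotic arrest. Nppc stood at 2.54 and 10.9 CPM in the cKO pair, 20.9 and 24.3 CPM in WT 1 and 2, and 100.6, 227, 66.1 and 86.2 CPM in WT 3 to 6. Fhod3 had 0 reads in both cKO libraries, 1.10 and 3.83 CPM in WT 1 and 2, and between 27.3 and 52.6 CPM in WT 3 to 6. H2afv, the most abundant of the 8, stood at 29.9 and 20.5 CPM in the cKO pair, 23.1 and 135 CPM in WT 1 and 2, and between 191 and 502 CPM in WT 3 to 6. In all 8 genes, WT replicates 3 to 6 were above both cKO libraries and WT replicate 1, which the ranking itself favours.

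The other members were further from Gch1 in pattern. Spr ranked 160 of 14008 at 1.39, Qdpr 200 at 1.43, Pts 423 at 1.60 and Pcbd1 2014 at 1.99. Their WT ranges were narrower, with a log2 range of 1.76 for Pts, 1.91 for Spr, 2.15 for Qdpr and 3.25 for Pcbd1 against 5.19 for Gch1. Since Gch1 was chosen for its spread, this contrast follows from the choice and is no separate finding. Qdpr parted from Gch1 in WT replicate 3, where it was at 27.3 CPM while Gch1 was at 118.5 CPM. Granulosa genes that also differ between WT libraries lay beside these values as follows. Inhba, which encodes the activin beta A chain, was between 51.7 and 351 CPM in the cKO pair and WT 1 and 2, and between 2250 and 11052 CPM in WT 3 to 6. Amh, which encodes anti-Müllerian hormone and is known from smaller growing follicles, was between 2.34 and 176 CPM in WT 3 to 6 and between 224 and 1126 CPM in the other 4 libraries. The 4 libraries with the most Amh were the 4 with the least Gch1, and whether follicle stage has a part in this was not tested. Summed oocyte markers were lowest in 3 of the Gch1-rich libraries, at 11.7, 10.4 and 2.94 CPM in WT 3 to 5, and lay at 44.7, 17.8, 141 and 396 CPM in cKO 1 and 2 and WT 1 and 2. WT replicate 6, also rich in Gch1, was the exception with the most, at 1526 CPM. Their part in the Gch1 values was not tested.

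**Figure D5:**
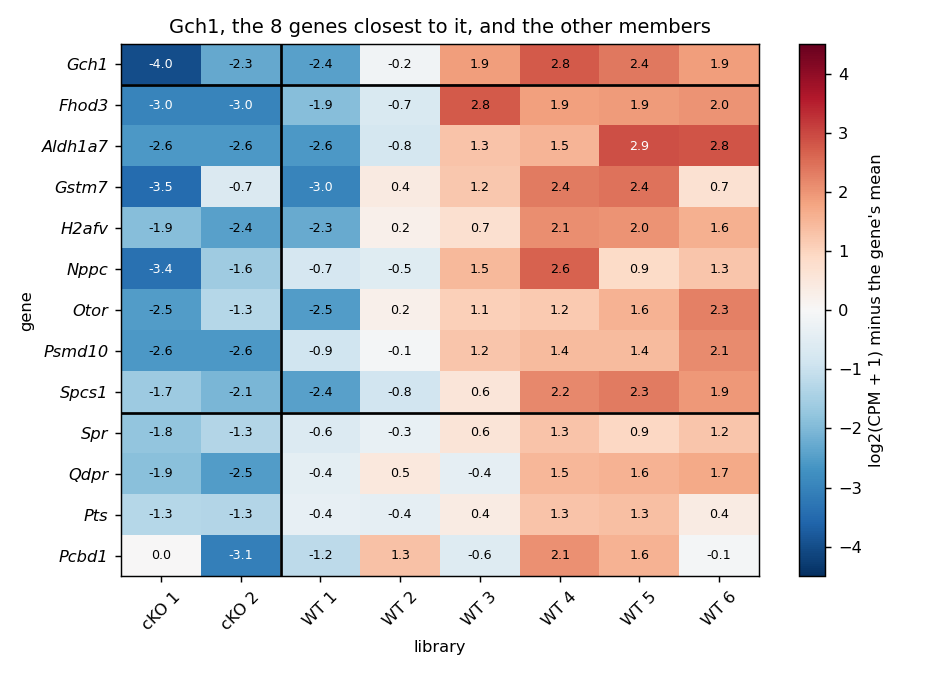
Heat map of log2(CPM + 1) minus each gene's mean over the 8 libraries, for Gch1, the 8 genes closest to it and 4 other members, with red above and blue below the mean and the value in each cell. Gch1 is above its mean in WT replicates 3 to 6 only, and Qdpr and Pcbd1 are below theirs in WT replicate 3.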

How the data were processed

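Granulosa cell RNA of 8 libraries (2 cKO, 6 WT, grouped by sample title) was analysed. Per the file headers, the authors deposited Salmon-style tables with estimated counts of reads, TPM and lengths. HISAT2, Salmon and the build mm10 appear in the submitters' processing notes, while their versions and the annotation are not given in the sources used here. Of 36635 rows, 1548 carry a transcript identifier only (0.435% to 0.739% of reads) and were left out. Deposited TPM, which the authors corrected for length, were used for levels between genes. The deposited length of Gch1 was below that of its shorter transcript in every library but cKO replicate 2, so the transcript split was computed from TPM and reads, not from that length.

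The estimated counts were rounded. Genes were kept by filterByExpr (minimum count 10, total 15), which left 15102, scaled by TMM and compared by the quasi-likelihood test of edgeR 4.0.16 (glmQLFit, glmQLFTest; R 4.3.3) on group alone. P-values were adjusted over all genes by Benjamini-Hochberg, and calls were made at 0.05. CPM are after TMM. The median log2 fold change of all genes moved from -0.08 to 0.05 with DESeq2's size factors. On simulated counts for this comparison over 15102 genes, edgeR called 28% of the genes given a 4-fold change and 75% of those given a 16-fold change, and made 2 false calls. A check for a library deposited more than once found none (chi-square per degree of freedom from 13.0 to 99.5 over all pairs, where such a pair would give about 1); it says nothing more about the spread. A count of 0 was taken to allow 3 reads; reads without molecular identifiers make such limits cover counting error only.

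The members and lists were chosen with earlier results of these data known. Named genes were the 6 members, the genes of 4 pathway lists (2 with the smallest p in each direction for GTP supply), Hif1a and the 8 genes closest to Gch1 (Gm and Rik names left out); 2 genes of these lists are not reported here; Inhba and Amh were chosen after their values were seen. Alternatives were library totals without TMM, size factors from DESeq2 1.42.0 and its own test, an unfiltered table, a minimum of 10 reads in 6 libraries, limma 3.58.1 (voom with sample weights, and on log2(TPM + 1)), the replicate number as a block, other pseudocounts (0.1 and 5) and leaving out each library.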

Additional observations from a re-analysis of the deposited data

Results flagged for a closer look

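In 27 genes the 6 WT libraries were searched for a lone library far from the rest. These genes included Hif1a and, of the GTP supply genes, only Impdh1, Guk1, Pfas and Atic. In this search 6 values stood out. Chance gives about 1 in 20 for normally distributed values, a condition that genes of few reads do not meet. WT replicate 1 was alone at the top for Nos3 (53.9 CPM, the next at 7.47 CPM), Gucy1b1 (19.2 CPM, the next at 5.43 CPM) and Tph2 (3.30 CPM, the next at 0.273 CPM). Tph1 was highest in WT replicate 6 at 5.89 CPM, with the next at 2.20 CPM. Gucy1a1 was at 0 CPM in WT replicate 6, where the next lowest library had 7.49 CPM. Atic was highest in WT replicate 2 at 42.6 CPM, with the next at 25.3 CPM. WT replicate 1 held 3 of these 6 values. It also had the highest summed endothelial markers (434 CPM, of which 306 CPM came from Pecam1), and their part in these values was not tested. None of the 6 members stood out in this way. The values of Tph1 and Tph2 rest on 27 and 6 reads.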

How the results depend on the processing

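The number of genes called was 0 with edgeR, 478 with no filter on low counts (25322 genes), 274 with DESeq2, 5 with limma on log2(TPM + 1) and 1 with the replicate block; without each library in turn it was from 0 to 1 (1 without cKO replicate 1 or cKO replicate 2). At an unadjusted p under 0.05 edgeR gave 1855, of them 1342 lower in cKO, but 3486 with no filter, 865 without cKO replicate 2, 3015 without WT replicate 1 and 179 with the replicate block; limma-voom called 0 and gave 1028 lower and 1458 higher. Members called were 0 with edgeR and 2 (Spr and Qdpr) both with no filter and with DESeq2, and 0 to 0 without each library; the cause was not tested. The log2 range of Gch1 in WT was from 2.93 to 5.19 without each WT library (2.93 without WT replicate 1), and the difference of its group means from -5.04 to -3.36 without each library. Pts, Spr, Qdpr and Pcbd1 stayed below 0 in every alternative run, with log2 fold changes nearest to 0 under the replicate block (-0.99, -1.14, -2.28) except for Pcbd1, at -1.16 there and -1.12 without cKO replicate 2. In the block fit, WT replicates 3 to 6 have no cKO library of their number and add nothing to the fold changes. All values and counts with the replicate block therefore compare cKO 1 and 2 with WT 1 and 2 only. The replicate numbers pair no samples by the labels. Same-numbered cKO and WT libraries deviated with correlations of -0.30 and -0.17. With 2 cKO libraries these values only mirror those of the crossed pairs (0.17 and 0.30), so they cannot decide on pairing. With the replicate block Atic turned to -0.17, and Ddah1 and Ddah2 were at -0.41 and -0.62. Depth limits Gch1, Gchfr and Pcbd1 in cKO, where 3 reads are 1.52 and 4.10 CPM.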
